A study of Homo sapiens with 12 samples.

Results

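The RNAs described here were transcripts named as long noncoding or antisense RNAs and measured in C4.2B cells, an established human line of castration-resistant prostate cancer. Members were chosen by name and by abundance. Their symbols began with LINC or SNHG followed by a number, ended in -AS and a number, or were MALAT1, NEAT1, GAS5, H19 or MEG3, and they were selected on a raw count of at least 120 summed over 12 libraries. This gave 48 genes, out of 92 with such a name and 23228 in the count files. They comprised 11 SNHG genes of 11, 33 antisense genes of 76, and MALAT1, NEAT1, GAS5 and H19. Among the antisense genes, GENCODE 44 lists HOXB13-AS1 as the protein-coding gene PRAC2, and TP73-AS1, ZNRD1-AS1 and ABHD11-AS1 as transcribed pseudogenes. The LINC pattern matched 0 symbols, and MEG3 had 3 counts in all. H19 (150 counts) and BSN-AS2 (169) lay just inside the limit, and CDKN2B-AS1 (118) and CECR5-AS1 (79) just outside it.

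All cells were kept for 24 h in medium with 10% charcoal-stripped serum. The DMSO arm received vehicle, the GDC arm GDC-0941 (0.5 µM), which inhibits all class I PI3K enzymes, the GSK arm the EZH2 inhibitor GSK126 at 5 µM, and the COMBO arm both agents. The arms with GSK126 had also been pretreated with it for 6 days, so the agent and the longer exposure cannot be told apart. Each arm had 3 polyA RNA-seq libraries, lettered A to C, of cells seeded on triplicate plates of the same line, so p-values measure the spread between these libraries, which may be technical.

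Long noncoding RNAs act as RNA rather than as templates for protein. MALAT1 accumulates in nuclear speckles, where splicing factors are stored, and NEAT1 is the scaffold of paraspeckles. SNHG genes, GAS5 and ZNFX1-AS1 (known today as ZFAS1) carry small nucleolar RNAs (snoRNAs) in their introns, which guide chemical modification or processing of ribosomal and other stable RNAs, while the spliced host RNA is often removed by nonsense-mediated decay. Antisense transcripts are read from the strand opposite a named gene, either overlapping it or starting next to its promoter. EZH2 is the enzyme of the Polycomb complex that places the repressive mark H3K27me3, and PI3K signals through AKT and mTOR to growth and ribosome production.

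Many snoRNA hosts belong to the transcripts that begin with an uninterrupted run of C and T, the start that mTOR-responsive ribosomal protein mRNAs also carry. The starts of 7 hosts are shown for that reason, from 20 bases before to 30 bases from the start of transcription, as RefSeq places them on GRCh38.p14, with the run of C and T that begins at the start base in capitals.
SNHG12: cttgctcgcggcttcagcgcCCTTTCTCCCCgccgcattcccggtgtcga
SNHG4: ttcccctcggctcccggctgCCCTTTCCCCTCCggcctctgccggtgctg
SNHG5: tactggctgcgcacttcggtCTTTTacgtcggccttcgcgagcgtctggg
ZNFX1-AS1: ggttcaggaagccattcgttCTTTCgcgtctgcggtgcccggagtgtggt
SNHG1: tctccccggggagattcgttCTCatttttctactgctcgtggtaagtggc
SNHG8: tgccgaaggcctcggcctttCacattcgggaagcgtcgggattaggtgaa
SNHG3: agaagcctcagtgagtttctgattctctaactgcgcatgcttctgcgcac
These stretches lie at chr1:28581844-28581893 (minus strand), chr5:139274081-139274130 (plus), chr6:85678704-85678753 (minus), chr20:49278622-49278671 (plus), chr11:62855856-62855905 (minus), chr4:118278742-118278791 (plus) and chr1:28505923-28505972 (plus), in the order shown. A run of at least 5 bases that opens with C was found at 4 of the 11 hosts with a RefSeq promoter (SNHG12, SNHG4, SNHG5 and ZNFX1-AS1) and at 4.07% of all 35116 promoters of 300 bases. Of the remaining 25 members with a promoter, 0 had it. The run depends on the start base, and GENCODE starts some hosts elsewhere, such as GAS5 and SNHG11. Of the hosts with the run, it starts SNHG12 (28583132), SNHG5 (85678932) and ZNFX1-AS1 (49278178) outside the stretches shown. Only SNHG4 (139274102) starts within its stretch. The count of hosts with the run thus rests on the RefSeq starts.

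Among 14189 genes tested with edgeR's quasi-likelihood test, to which all 48 members belonged, a call is a Benjamini-Hochberg adjusted p, written q, under 0.05. In GDC against DMSO, 10 members were higher and 4 lower, beside 20% of all genes higher and 20% lower. With DESeq2 size factors in edgeR that split was 9 and 6. In GSK, 20 members were higher and 9 lower (40.0% and 35.7% of all genes), and with COMBO 26 were higher and 10 lower (43.3% and 39.2%). ST7-AS1 and ABHD11-AS1 reached the count limit only through their higher arms. BSN-AS2 and H19 would have missed it had each arm held the raw counts of GSK (29 and 22). GSK had the fewest counts in genes, and in CPM the lowest arm was GDC for BSN-AS2 and COMBO for H19. Without ST7-AS1 and ABHD11-AS1, which were high in the arms with GSK126, the counts were 18 higher and 9 lower with GSK and 24 and 10 with COMBO. BDNF-AS1, with 30 counts in DMSO, 60 with GSK and 149 with COMBO, also had most of its counts in the arms with GSK126. It was left in these counts as higher with both. The share of members called higher lay near the background with GDC and GSK and above it with COMBO, and the share called lower lay below the background in each of these comparisons.

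COMBO was then compared with each agent. Against GDC, 23 members were higher and 9 lower (37.9% and 38.0% of all genes), and against GSK 11 were higher and 4 lower (19% and 26.9%). With library totals in place of TMM scaling the split against GSK was 14 and 2. Without ST7-AS1 and ABHD11-AS1 the split against GDC was 21 and 9, with BDNF-AS1 still counted as higher. The median log2 fold change of the members against DMSO was 0.04 with GDC, 0.21 with GSK and 0.47 with COMBO, beside 0.02, 0.06 and 0.05 over all genes. Library totals moved the median of all genes to 0.21 with GSK, 0.26 with COMBO and 0.19 with COMBO against GDC, and the changes below are relative to TMM scaling. In bulk samples, more of a transcript per cell, a larger share of cells that carry it and less of all other RNA cannot be told apart.

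MALAT1 and NEAT1 rose furthest among the abundant members. The libraries were of polyA RNA, so any MALAT1 or NEAT1 RNA without a polyA tail may be missed. The levels below are those of the RNA captured. MALAT1 (chromosome 11, 65497640 to 65508073, hg38, plus strand) stood at 818, 835 and 692 CPM (counts scaled to library size, with TMM) in DMSO A, B and C, and at 903, 729 and 855 CPM with GDC. It reached 2142, 2234 and 3181 CPM with GSK and 6548, 4105 and 4962 CPM with COMBO. The libraries of GSK and COMBO lay above all those without GSK126 and did not overlap each other, whereas GDC overlapped DMSO. The log2 fold change against DMSO was 0.09 with GDC (SE 0.14, q = 0.662), 1.69 with GSK (SE 0.14, q = 1.40e-09) and 2.74 with COMBO (SE 0.15, q = 6.41e-13), and COMBO exceeded GSK by 1.05 (SE 0.14, q = 4.02e-06). MALAT1 is retained in the nucleus. As a share of all counts in genes it made up 0.0729% ± 0.00715 in DMSO, 0.0792% ± 0.00888 with GDC, 0.261% ± 0.0587 with GSK and 0.562% ± 0.139 with COMBO (SD, n = 3). It held 55.5% ± 2.86 of the members' counts in DMSO and 81.2% ± 1.78 with COMBO.

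NEAT1 (chromosome 11, 65422774 to 65445540, plus strand) lies beside MALAT1 on the same strand. Its levels were 95.8, 95.2 and 100.4 CPM in DMSO, 147, 127 and 114 with GDC, 412, 431.5 and 339.5 with GSK, and 739, 492 and 558 with COMBO. The arms did not overlap, and COMBO A was the highest library for NEAT1 as for MALAT1. The log2 fold change was 0.41 with GDC (SE 0.12, q = 0.0100), 2.02 with GSK (SE 0.12, q = 5.57e-12) and 2.61 with COMBO (SE 0.12, q = 4.35e-14). The GDC call was lost without GDC A (0.27, q = 0.103), without DMSO A (q = 0.0519) and with DESeq2 (q = 0.0603). COMBO exceeded GSK by 0.60 (SE 0.11, q = 0.000179).

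**Figure D1:**
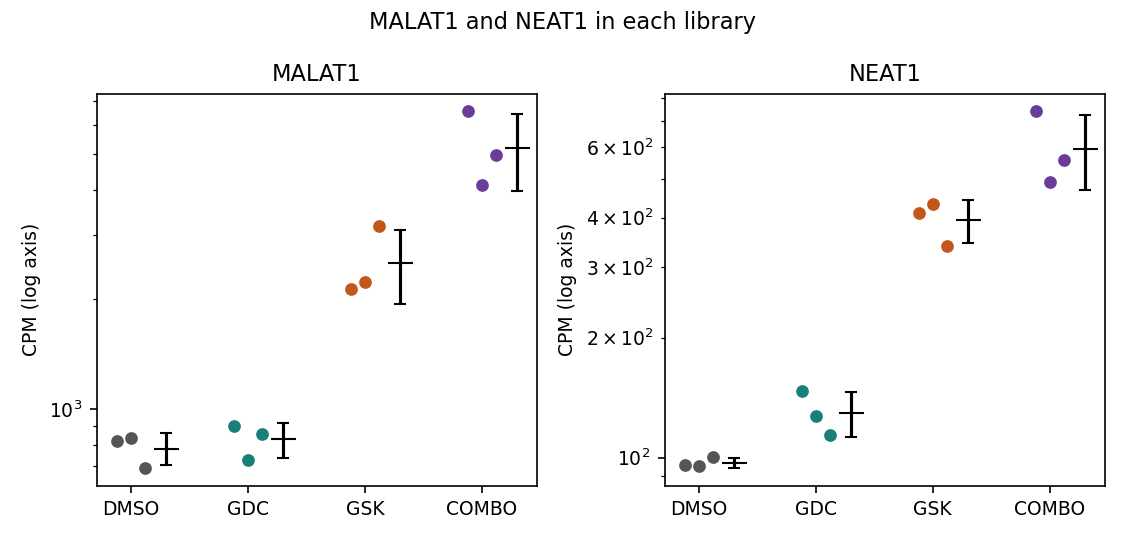
MALAT1 (left) and NEAT1 (right) in CPM on log axes, with 1 point per library in the order A, B, C for each arm, and the mean and SD (n = 3) as a dash with bars to the right of the points. The COMBO libraries sit between 4105 and 6548 CPM for MALAT1, above every GSK library.

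Reads that fell outside annotated genes moved with these transcripts. They made up 14.9% to 15.9% of reads in genes, outside genes or ambiguous in DMSO, 16.7% to 17.2% with GDC, 20.2% to 20.8% with GSK and 23.0% to 25.3% with COMBO, with COMBO A the highest. The part of this in the result was not tested. Library depth was 8785218 to 44437751 counts in genes, and the deepest, DMSO C, had the lowest MALAT1 level of its arm. The prostate marker KLK3 was present in every arm, at a mean of 597 to 1843 CPM. The leukocyte marker PTPRC and the endothelial marker PECAM1 had at most 7 counts in an arm, and COL1A1, a collagen of stromal cells, had a mean of 10.5 CPM in DMSO and 35.8 CPM with COMBO.

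A count per gene symbol does not separate NEAT1 transcripts of different length. RNA of the paraspeckle proteins that bind NEAT1 moved the other way in these libraries. Of 18 tested, 16 were lower and 1 was higher in both GSK and COMBO, beside 35.7% and 39.2% of all genes lower, and with GDC 8 were lower and 1 was higher, beside 20% lower. SFPQ fell by 1.04 on the log2 scale with COMBO and RBM14 by 1.41, while NONO, which pairs with SFPQ, was at 0.02 and was not called. The median over the list was -0.69 with COMBO, beside 0.05 over all genes. Factors that process MALAT1 and NEAT1 or hold MALAT1 in speckles, such as subunits of RNase P and SR proteins, were lower for 9 of 14 tested with GDC, 12 with GSK and 12 with COMBO (20%, 35.7% and 39.2% of all genes), with SRSF1 at -1.50 and SRSF2 at -1.75 with COMBO. SRRM2, a scaffold protein of speckles, rose by 0.41 there, and SON, the other scaffold, was at 0.09 and was not called.

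H19, an imprinted RNA of fetal tissue, was close to the limit of detection. It was at 1.26, 0.664 and 0.842 CPM in DMSO and at 0.639, 0.533 and 0.801 CPM with COMBO. The libraries overlapped, and the log2 fold change of -0.43 (SE 0.32, q = 0.230) was not called with COMBO.

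The 13 snoRNA hosts moved both ways, as genes at large did. With GSK 6 were higher and 6 lower (40.0% and 35.7% of all genes), with COMBO 6 were higher and 5 lower (43.3% and 39.2%), and with GDC 4 were higher and 3 lower (20% each way). With COMBO these shares lay near the background. Their median log2 fold change was -0.12, -0.20 and 0.02 with GDC, GSK and COMBO. GENCODE places snoRNAs inside 12 of them on the same strand.

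SNHG8, host of SNORA24 (chromosome 4, 118278703 to 118285316), rose in every treated arm. It was at 44.2, 45.2 and 42.1 CPM in DMSO, 58.3, 54.9 and 56.9 with GDC, 63.6, 69.2 and 64.7 with GSK, and 84.7, 84.0 and 79.6 with COMBO. The 4 arms did not overlap. The log2 fold changes of SNHG8 were 0.38 (SE 0.05), 0.60 (SE 0.06) and 0.93 (SE 0.05), with q of 2.21e-05, 6.45e-09 and 1.62e-12. ZNFX1-AS1, host of the SNORD12 family (chromosome 20, 49278178 to 49299600), moved alike, from 41.4, 45.6 and 46.9 CPM in DMSO to 77.3, 71.2 and 73.5 CPM with COMBO. Its log2 fold changes were 0.31, 0.41 and 0.71 (q = 0.000610, 8.90e-06 and 1.06e-09), and again the COMBO libraries were above all others.

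GAS5, named for its accumulation in growth-arrested cells, was at 27.0, 24.6 and 27.8 CPM in DMSO and at 41.2, 39.4 and 34.7 CPM with COMBO (0.54, SE 0.07, q = 7.67e-07). Every COMBO library was above every library of the other arms. In GSK the GAS5 difference was 0.18 (q = 0.0431), a call lost in 14 of 19 alternatives, with q up to 0.350. In GDC it was 0.27 (q = 0.00666) and was lost without DMSO B (q = 0.0876) or GDC B (0.102). SNHG11, host of SNORA60, rose by 0.48 with GSK (q = 0.00586, and 0.0779 without GSK B) and 0.59 with COMBO (q = 0.000438). SNHG6, host of SNORD87, rose by 0.23, 0.20 and 0.30 with GDC, GSK and COMBO. Its GDC and GSK calls were lost with DESeq2 (q = 0.0597 and 0.0916) and without several libraries.

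SNHG1, which holds SNORD22, SNORD25 and neighbouring snoRNAs (chromosome 11, 62851978 to 62855953), was among the hosts that fell and had the largest decrease of them with GDC. It was at 51.2, 62.2 and 60.0 CPM in DMSO, 45.3, 40.5 and 41.9 with GDC, 27.0, 34.1 and 28 with GSK, and 31.2, 27.7 and 27.9 with COMBO. GSK and COMBO overlapped each other and lay below GDC, which lay below DMSO. The log2 fold changes of SNHG1 were -0.46 (SE 0.08), -0.97 (SE 0.09) and -1.01 (SE 0.08), with q of 0.000130, 3.19e-09 and 3.90e-10.

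SNHG4 and SNHG12 fell to a similar extent. SNHG4, host of SNORA74A, was at 15.2, 13.3 and 13.8 CPM in DMSO and at 6.50, 6.21 and 6.63 CPM with COMBO. Its log2 fold change was -0.12 with GDC (q = 0.298), -1.14 with GSK (q = 3.91e-09) and -1.12 with COMBO (q = 8.00e-10). SNHG12, host of SNORA44 and SNORA61, was at 9.47, 7.63 and 8.45 CPM in DMSO and at 5.05, 3.06 and 3.2 CPM with COMBO, with -0.95 with GSK (q = 0.000116) and -1.16 with COMBO (q = 3.59e-06). The COMBO libraries of both genes were below all DMSO libraries. SNHG3, host of the SNORA73 pair, fell by 0.72 with GSK and 0.63 with COMBO, and SNHG10, host of SCARNA13, by 0.56 and 0.68. SNHG3 overlaps RCC1, SNHG4 overlaps MATR3 and SNHG5 overlaps a further protein-coding gene on the same strand in GENCODE, so their counts are uncertain.

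The hosts with a C and T run of at least 5 bases at the RefSeq start fell into both groups. GENCODE starts SNHG12, SNHG5 and ZNFX1-AS1 elsewhere. SNHG12 and SNHG4, with the longest runs (11 and 13 bases), were lower with COMBO, and SNHG5 and ZNFX1-AS1, with runs of 5, were higher. SNHG5, host of SNORD50B, was at 13.2, 11.9 and 12 CPM in DMSO, 13.3, 12.3 and 10.9 with GDC, 10.0, 9.96 and 11.8 with GSK, and 16.9, 15.7 and 15.1 with COMBO. It was called higher with COMBO (0.38, SE 0.09, q = 0.000711). With GSK it was at -0.20 (q = 0.0827), and this decrease was called in 8 of 19 alternatives. Its COMBO libraries were above all others. SNHG9, host of SNORA78, was called with GSK alone, at 12.1, 11.9 and 13.5 CPM against 6.84, 9.01 and 7.46 in DMSO (0.68, SE 0.13, q = 0.000117), and COMBO lay below GSK by 0.65 (SE 0.13, q = 0.000477). SNHG7, host of the SNORA17 pair, was lower with GSK with overlapping libraries (-0.49, q = 0.0151), a call lost with library totals (q = 0.0906) or without DMSO C (0.0634) or GSK C (0.110).

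**Figure D2:**
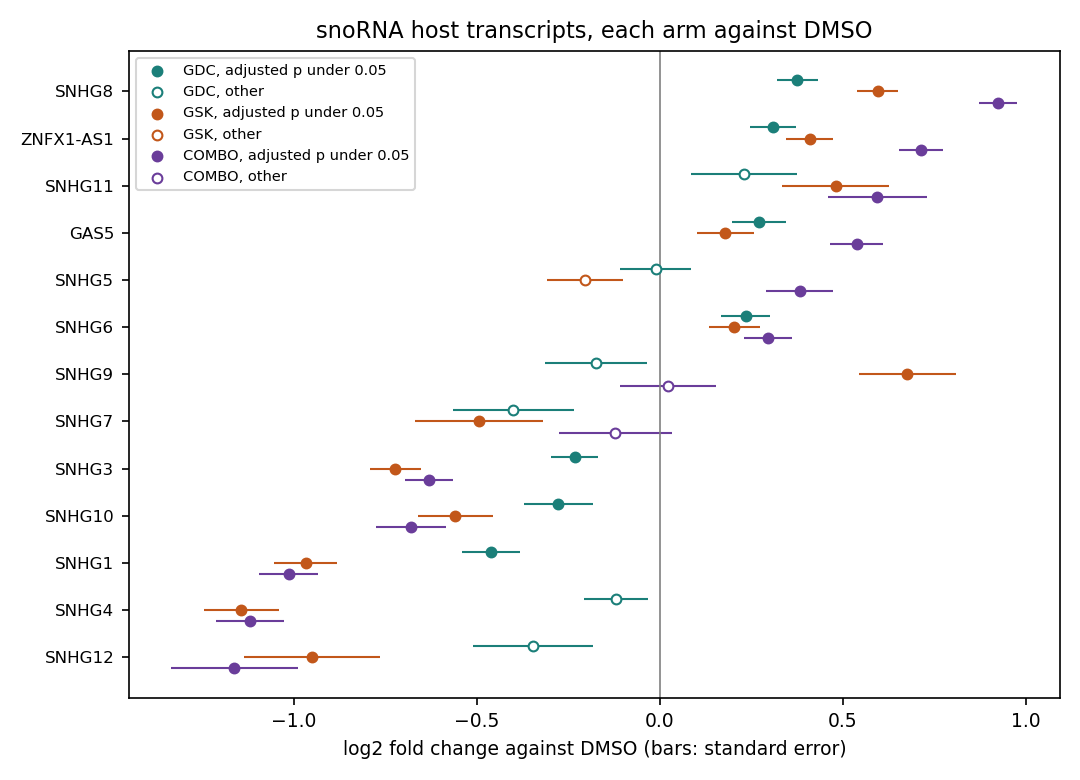
Log2 fold change against DMSO (horizontal axis, with bars of 1 standard error) of the 13 snoRNA hosts with GDC, GSK and COMBO. Filled points have q under 0.05 and open points do not, and genes are ordered by their COMBO value, from SNHG8 at 0.93 to SNHG12 at -1.16.

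Protein-coding snoRNA hosts, from a list outside the naming rule, also moved both ways. Of 36 tested, 12 were higher and 20 lower with COMBO, beside 43.3% and 39.2% of all genes. Of its ribosomal protein genes, RPL13A (1.15) and RPL3 (0.57) rose, RPSA (-0.29) and RPS2 (-0.20) fell and RPS13 (0.04) was not called, and of its translation factors EEF2 (0.53) and EIF4A2 (0.76) rose and EEF1B2 (-0.37) fell. Genes of ribosome assembly were among those that fell, such as the box C/D core proteins NOP56 (-1.57) and NOP58 (-1.53) and the nucleolar protein NCL (-1.71), while RCC1, a regulator of Ran that surrounds SNHG3, was at -2.51. Nonsense-mediated decay factors, which degrade many host RNAs, were lower for 14 of 18 with GSK and 12 of 18 with COMBO, with 2 higher in each, beside 35.7% and 39.2% of all genes lower and 40.0% and 43.3% higher. UPF1, the central helicase of that pathway, fell by 0.26 with GSK and 0.18 with COMBO, and SMG1, the kinase that phosphorylates it, rose by 0.69 with COMBO.

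Among the 32 antisense genes that are not snoRNA hosts, 5 were higher and 1 lower with GDC (20% of all genes each way), and 26 were not called. With GSK 12 were higher and 3 lower (40.0% and 35.7% of all genes), and with COMBO 18 were higher and 5 lower (43.3% and 39.2%). The genes higher with GSK and with COMBO include ABHD11-AS1 and ST7-AS1, which reached the count limit only through the arms with GSK126. BDNF-AS1, with most of its counts in those arms, is also among them. The share higher lay near the background with GDC and GSK and above it with COMBO, and the share lower was below it in each. Their median log2 fold change was 0.05, 0.31 and 0.60. The antisense members took 0.0228% ± 0.000392 of counts in genes in DMSO and 0.0330% ± 0.00126 with COMBO (SD, n = 3, with ZNFX1-AS1). 

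ABHD11-AS1, opposite the gene of a mitochondrial hydrolase and listed today as the pseudogene BICDL3P (chromosome 7, 73734994 to 73736161), had the largest fitted change of the 48 members, but it reached the count limit only through the arms with GSK126, so its difference from DMSO is given without a test. Its CPM was 0, 0.166 and 0.337 in DMSO, where A had 0 counts, which allows up to 0.316 CPM. It was 0.354, 0.431 and 0.335 CPM with GDC, 1.87, 4.19 and 2.97 with GSK, and 3.08, 3.11 and 3.42 with COMBO. The libraries with GSK126 were above all those without it. The log2 fold changes of ABHD11-AS1 were 3.64 with GSK and 3.68 with COMBO, and with COMBO against GSK it was 0.04 (SE 0.24, q = 0.911). These fits rest on 17 counts in DMSO in all. The value with COMBO ranged from 3.44 to 4.77 over the alternatives.

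ST7-AS1, opposite a candidate tumour suppressor gene (chromosome 7, 116952446 to 116954334), was at 0.632, 0.940 and 0.577 CPM in DMSO, 3.30, 2.45 and 2.97 with GSK, and 2.67, 3.24 and 4.01 with COMBO. It too reached the count limit only through the arms with GSK126, and its log2 fold changes of 2.05 with GSK and 2.24 with COMBO are likewise a description. GDC, at 0.619, 0.678 and 0.469 CPM, overlapped DMSO. BDNF-AS1, opposite the neurotrophin gene BDNF (chromosome 11, 27506830 to 27698231), was at 0.421, 0.664 and 0.337 CPM in DMSO, 1.76, 1.90 and 1.70 with GSK, and 3.66, 2.44 and 2.26 with COMBO. All libraries of GSK and COMBO were above DMSO for both genes. BDNF-AS1 had 30 counts in DMSO, the deepest arm, 34 with GDC, 60 with GSK and 149 with COMBO. Most of its counts thus came from the arms with GSK126. Its log2 fold changes of 2.01 with GSK and 2.65 with COMBO are likewise a description, without a test.

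HOXA11-AS1, opposite a homeobox gene of limb and reproductive tract patterning (chromosome 7, 27184507 to 27189298), was at 5.47, 5.09 and 7.46 CPM in DMSO and 9.46, 8.62 and 9.72 with GDC. It was at 17.6, 20.7 and 19.2 CPM with GSK and 21.3, 18.1 and 22.6 with COMBO. The last pair of arms overlapped, and both lay above GDC, which lay above DMSO. The log2 fold changes of HOXA11-AS1 were 0.54 (SE 0.14, q = 0.00454), 1.60 (SE 0.13, q = 9.19e-10) and 1.69 (SE 0.12, q = 9.04e-11).

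TIPARP-AS1, opposite the gene of a mono-ADP-ribosyltransferase, was called with GDC and COMBO. It was at 0.842, 1.05 and 0.770 CPM in DMSO, 1.86, 1.36 and 1.54 with GDC, 1.54, 1.03 and 1.36 with GSK, and 2.96, 2.31 and 2.62 with COMBO. COMBO lay above every other library, with a log2 fold change of 1.59 (SE 0.22, q = 1.35e-06). The GDC change of 0.85 (SE 0.25, q = 0.0111) was lost without DMSO C (q = 0.129), without GDC A (0.0642) and with DESeq2 (0.0626). LGALS8-AS1, opposite the galectin-8 gene, was 0.65 with GDC (q = 0.0445), lost in 14 of 19 alternatives with q up to 0.345, and 0.95 with COMBO (q = 0.000854).

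ARHGEF26-AS1, opposite the gene of a guanine nucleotide exchange factor (chromosome 3, 154024401 to 154121347), fell furthest among the antisense genes. It was at 28.1, 25.9 and 29.6 CPM in DMSO, 20.1, 23.3 and 20.8 with GDC, 17.1, 14.1 and 13.8 with GSK, and 12.4, 11.9 and 9.10 with COMBO. The 4 arms did not overlap. The log2 fold changes of ARHGEF26-AS1 were -0.38 (SE 0.10, q = 0.00319), -0.91 (SE 0.10, q = 1.50e-07) and -1.31 (SE 0.10, q = 2.19e-10).

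MCM3AP-AS1, opposite the gene of an mRNA export protein, was at 7.79, 6.41 and 6.16 CPM in DMSO and 4.70, 3.46 and 4.37 with COMBO (-0.67, SE 0.17, q = 0.00121). MYLK-AS1, opposite the myosin light chain kinase gene, was at 2.95, 2.43 and 2.31 CPM in DMSO and 1.74, 1.69 and 1.38 with COMBO (-0.60, SE 0.22, q = 0.0161), a call lost with library totals (q = 0.0999). MCF2L-AS1, opposite another exchange factor gene, was called lower with COMBO (-0.46, SE 0.11, q = 0.000438). Each had its COMBO libraries below all DMSO libraries. Of the most counted antisense genes, TP73-AS1, opposite a gene of the p53 family, was at 59.2, 56.3 and 54.7 CPM in DMSO and 56.0, 53.7 and 62.1 with COMBO (0.02, SE 0.06, q = 0.802), with overlapping libraries. With library totals the value for TP73-AS1 was 0.22 (q = 0.00263) and was called. LPP-AS2, opposite the gene of a focal adhesion protein, rose by 0.36 with GSK (q = 0.00470) and 0.61 with COMBO (q = 9.49e-06).

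The remaining antisense members are given by their range. Of 15 such genes, 6 were higher with GSK and 8 with COMBO, beside 40.0% and 43.3% of all genes. The shares of all genes lower were 35.7% and 39.2%, and with GDC 20% were called each way. The antisense genes called lower with GSK or COMBO, and those called with GDC, had all been named above. That 0 of the 15 were lower in either, or called with GDC, follows from that choice and is not a result. Their COMBO values ran from -0.13 for MFI2-AS1 to 1.21 for ZNRD1-AS1. BSN-AS2, just above the count limit, was at 0.48 with COMBO (SE 0.29, q = 0.127) and was not called.

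**Figure D3:**
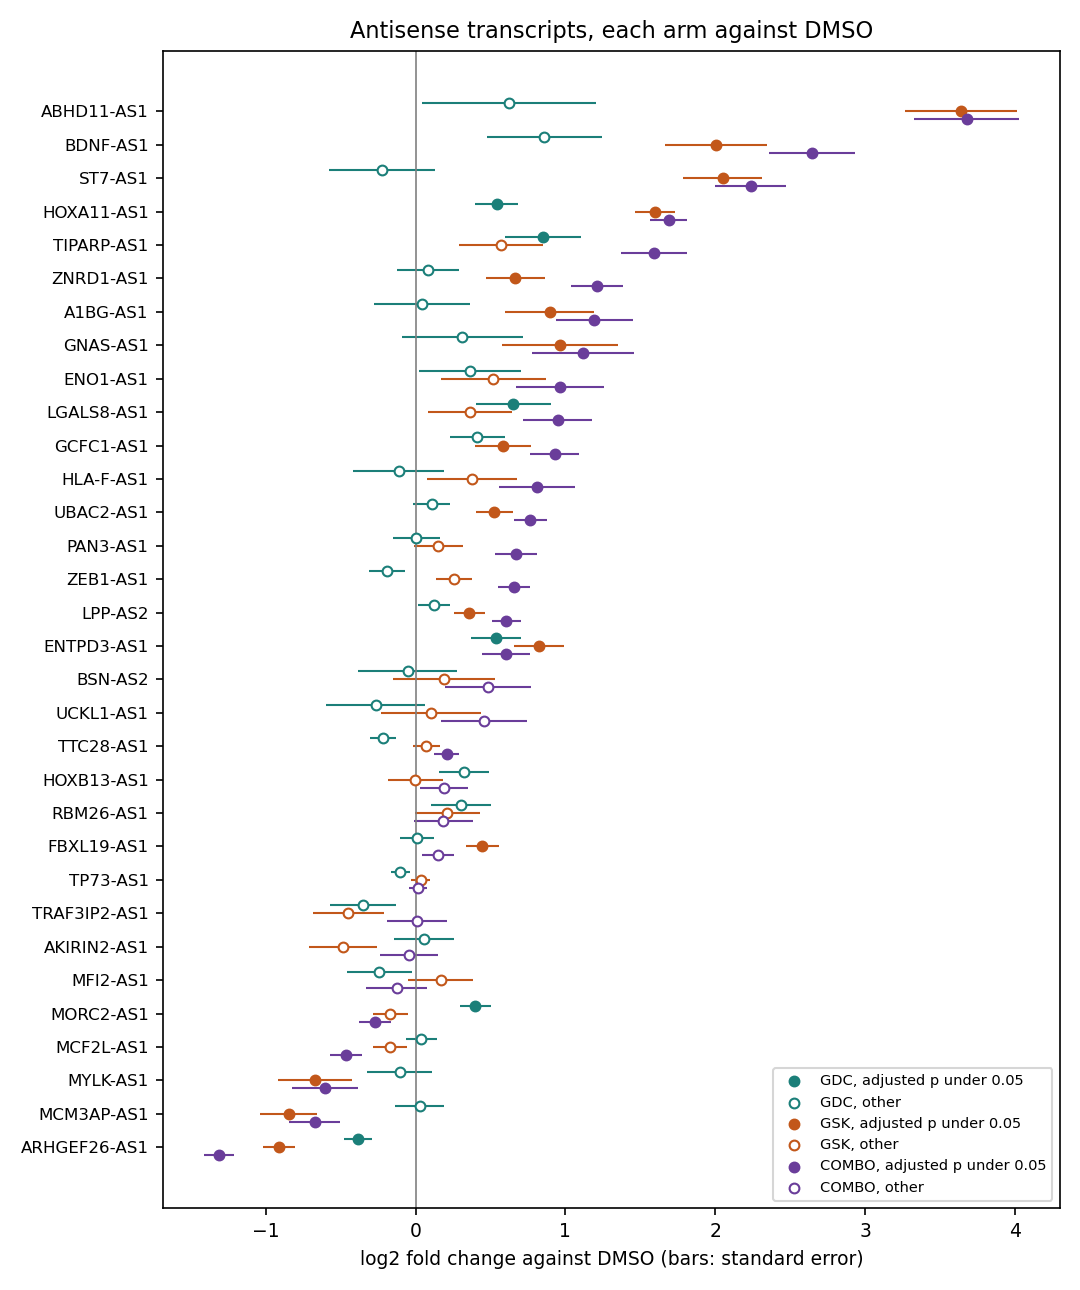
Log2 fold change against DMSO (horizontal axis, with bars of 1 standard error) of the 32 antisense genes that are not snoRNA hosts, ordered by their COMBO value. Filled points have q under 0.05 and open points do not, and the COMBO values run from 3.68 for ABHD11-AS1 to -1.31 for ARHGEF26-AS1. ABHD11-AS1 and ST7-AS1 reached the count limit only through the arms with GSK126, and BDNF-AS1 had most of its counts there. Their filled points with GSK and COMBO are a description, not a test.

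Promoters of antisense members that moved in opposite directions are shown whole, with CG in capitals, since CG-rich promoters are the usual sites of Polycomb in mammals. HOXA11-AS1 and ST7-AS1 had among the 4 largest fitted increases of antisense genes with GSK, and ARHGEF26-AS1 fell most there. They were chosen after their values were seen.
HOXA11-AS1: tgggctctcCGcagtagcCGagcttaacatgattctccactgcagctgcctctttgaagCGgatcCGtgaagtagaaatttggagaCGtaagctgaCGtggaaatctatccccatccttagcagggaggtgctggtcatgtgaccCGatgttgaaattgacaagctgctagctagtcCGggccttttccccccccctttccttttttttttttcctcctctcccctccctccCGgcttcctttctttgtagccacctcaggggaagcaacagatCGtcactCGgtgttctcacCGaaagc
ST7-AS1: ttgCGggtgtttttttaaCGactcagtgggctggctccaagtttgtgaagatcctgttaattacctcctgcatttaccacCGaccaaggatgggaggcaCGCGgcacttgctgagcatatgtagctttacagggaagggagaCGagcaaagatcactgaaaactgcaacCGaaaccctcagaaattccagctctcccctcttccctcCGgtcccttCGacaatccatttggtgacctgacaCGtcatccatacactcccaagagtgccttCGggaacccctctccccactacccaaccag
ARHGEF26-AS1: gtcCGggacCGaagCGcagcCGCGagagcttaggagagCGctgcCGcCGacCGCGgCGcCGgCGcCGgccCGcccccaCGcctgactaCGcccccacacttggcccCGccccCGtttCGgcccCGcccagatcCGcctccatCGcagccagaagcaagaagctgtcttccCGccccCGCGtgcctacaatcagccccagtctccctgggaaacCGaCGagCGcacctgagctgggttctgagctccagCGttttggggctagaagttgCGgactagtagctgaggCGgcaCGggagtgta
They lie at chr7:27185158-27185457 (plus strand), chr7:116954285-116954584 (minus) and chr3:154121161-154121460 (minus) of GRCh38.p14, from 250 bases before to 50 bases from the RefSeq start. CG occurred 12, 11 and 33 times in them, beside a median of 14 over all 35116 promoters. Other antisense genes with the largest fitted changes with GSK did not all follow this split. BDNF-AS1, which rose, had 21, and MCM3AP-AS1 and MYLK-AS1, which fell, had 27 and 14. Over the 36 members with a promoter the median was 27, with 21.5 for the 20 called higher with COMBO, 27 for the 9 called lower and 28 for the 7 not called. The E-box CACGTG, which reads the same on both strands and is bound by MYC, was found in 1 of the 36 (SNHG7) and in 7.26% of all promoters. The forkhead motif GTAAACA, searched on both strands, was found in 0 of the 36 and in 3.42% of all promoters.

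Antisense genes were next set beside the genes they are named for. Of 33 pairs, 10 had starts within 1000 bases on opposite strands, 21 overlapped with starts farther apart, 1 was apart and 1 was not placed. Exons shared bases in 26 pairs, 35 members overlapped a protein-coding gene on the other strand, and the use of strand in counting is not stated, so reads of the shared bases cannot be assigned between partners. In COMBO against DMSO, 31 partners were tested and both genes of 19 pairs were called, beside 43.3% of all genes higher and 39.2% lower. Both were higher in 11 pairs and both lower in 2, the antisense gene was higher and its partner lower in 4, and the reverse held in 2. ST7-AS1 (both higher) and ABHD11-AS1 (partner lower) are among these pairs, although they reached the count limit only through the arms with GSK126. The correlation of log2 fold changes across the 31 pairs was -0.0622 (Pearson) and 0.0169 (Spearman), a description over genes measured in the same libraries.

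ST7 rose with ST7-AS1, from a mean of 32.8 CPM in DMSO to 93.5 with COMBO (log2 fold change 1.51, q = 1.71e-15). Like its antisense gene, ARHGEF26 fell with COMBO, by 0.69 (q = 5.60e-12). In GDC, however, ARHGEF26 was higher by 0.20 while ARHGEF26-AS1 fell by 0.38. The partners of the other antisense genes that rose most were not called higher with COMBO: ABHD11 fell by 0.68 with COMBO (q = 2.58e-09), HOXA11 was at 0.11 (q = 0.280), and BDNF, with at most 14 counts in an arm, was not tested. With GSK, however, HOXA11 was called higher, at 0.24 (q = 0.0346), and ABHD11 lower, at -0.36 (q = 3.1e-05). Of the partners of other named antisense genes, LPP (1.43), LGALS8 (1.34), TTC28 (1.62), ZNFX1 (0.95), TP73 (0.87) and TIPARP (0.33) were higher with COMBO, MCM3AP was lower (-0.21), MORC2 (-0.02) was not called and ZEB1 was too low to be tested.

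MYLK and MCF2L, which encode myosin light chain kinase and an exchange factor, moved against their antisense genes. MYLK went from a mean of 35.1 CPM in DMSO to 199.5 with COMBO (log2 fold change 2.51, q = 6.09e-17), and MCF2L from 31.9 to 86.0 CPM (1.43, q = 5.85e-14). ENTPD3, an ectonucleotidase gene, rose by 2.53 with COMBO and ENTPD3-AS1 by 0.60.

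**Figure D4:**
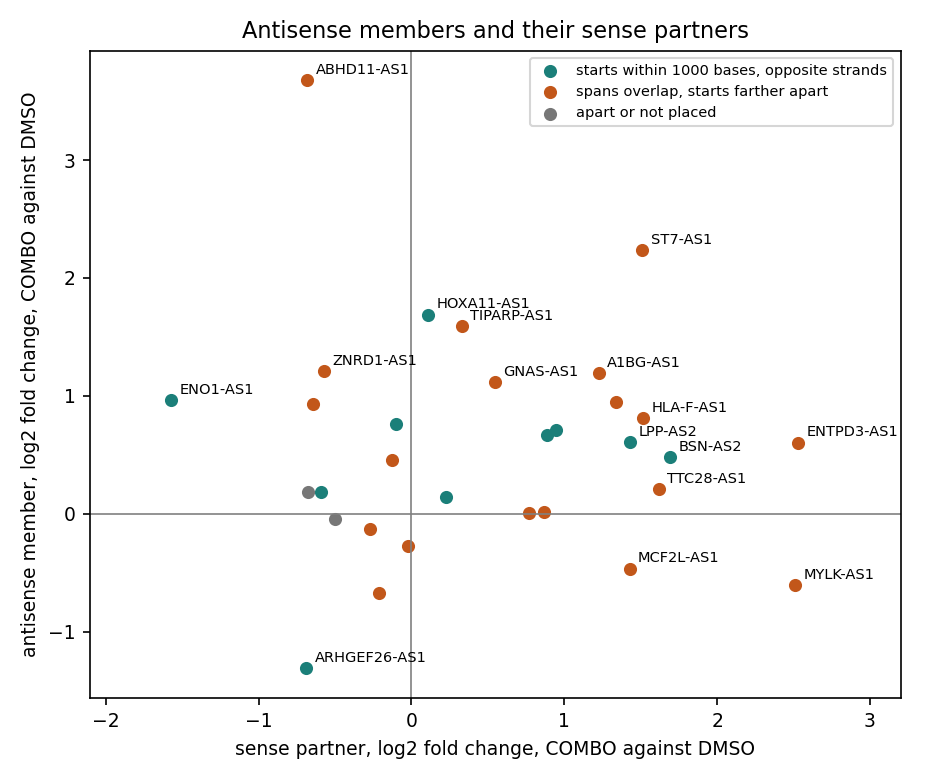
Log2 fold change with COMBO against DMSO of 31 antisense genes (vertical axis) and of the genes they are named for (horizontal axis), with 1 point per pair coloured by their arrangement in GENCODE. Points fall in all 4 quadrants, with ABHD11-AS1 at 3.68 against -0.68 for ABHD11 and MYLK-AS1 at -0.60 against 2.51 for MYLK.

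Whether the agents together departed from the sum of their separate effects was tested as an interaction on the log2 scale (COMBO minus GDC minus GSK plus DMSO). The interaction was positive for 7 members and negative for 2, beside 4.86% and 16.5% of all genes. The positive members were MALAT1, SNHG1, SNHG3, SNHG5, SNHG7, ZEB1-AS1 and TTC28-AS1. The calls of SNHG7 and TTC28-AS1 were lost in 4 and 5 of 18 alternatives, and both negative calls, ENTPD3-AS1 and MORC2-AS1, with DESeq2 and with no filter. MALAT1 had the largest value, 0.96 (SE 0.20, q = 0.00137), which was past the threshold in all 18 alternative fits, with values from 0.83 to 1.17. NEAT1, at 0.19 (SE 0.16, q = 0.449), was not called, though it was called with no filter. Positive values for SNHG1 (0.41) and SNHG3 (0.32) mean that COMBO stood above the sum of 2 decreases.

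ZEB1-AS1, opposite the gene of a repressor of epithelial genes, was at 9.26, 7.19 and 7.58 CPM in DMSO, 6.54, 7.08 and 6.84 with GDC, 8.02, 10.1 and 9.58 with GSK, and 12.1, 13.1 and 11.6 with COMBO. Only its COMBO libraries lay wholly above the others, with a log2 fold change of 0.66 (SE 0.11, q = 1.02e-05). MORC2-AS1, opposite the gene of a chromatin-silencing ATPase, was at 11.4, 10.2 and 10.9 CPM in DMSO, 13.4, 14.7 and 14.4 with GDC, 10.4, 10.4 and 8.05 with GSK, and 8.01, 9.85 and 8.74 with COMBO. Its interaction of -0.50 (q = 0.0276) was lost in 13 of 18 alternatives (q up to 0.178). It was higher with GDC (0.40, SE 0.10, q = 0.00463) and lower with COMBO (-0.27, SE 0.11, q = 0.0242), and the COMBO call was lost with library totals (-0.07, q = 0.562) and without DMSO C (0.0838) or COMBO A (0.10).

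ENTPD3-AS1, opposite the ectonucleotidase gene, was at 2.21, 2.43 and 2.72 CPM in DMSO, 3.54, 3.70 and 3.82 with GDC, 3.74, 5.38 and 4.24 with GSK, and 4.12, 3.55 and 4.01 with COMBO. All treated libraries lay above DMSO, COMBO overlapped both single agents, and the interaction was -0.76 (SE 0.23, q = 0.0225), a call lost in 9 of 18 alternatives (q up to 0.159). TTC28-AS1, opposite a gene of mitotic midbody organisation, was at 14.1, 13.3 and 12.5 CPM in DMSO, 11.8, 11.2 and 11 with GDC, 14.4, 14.1 and 12.9 with GSK, and 15.7, 14.6 and 15.2 with COMBO, where it rose by 0.21 (q = 0.0249), a call lost in 7 of 19 alternatives.

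**Figure D5:**
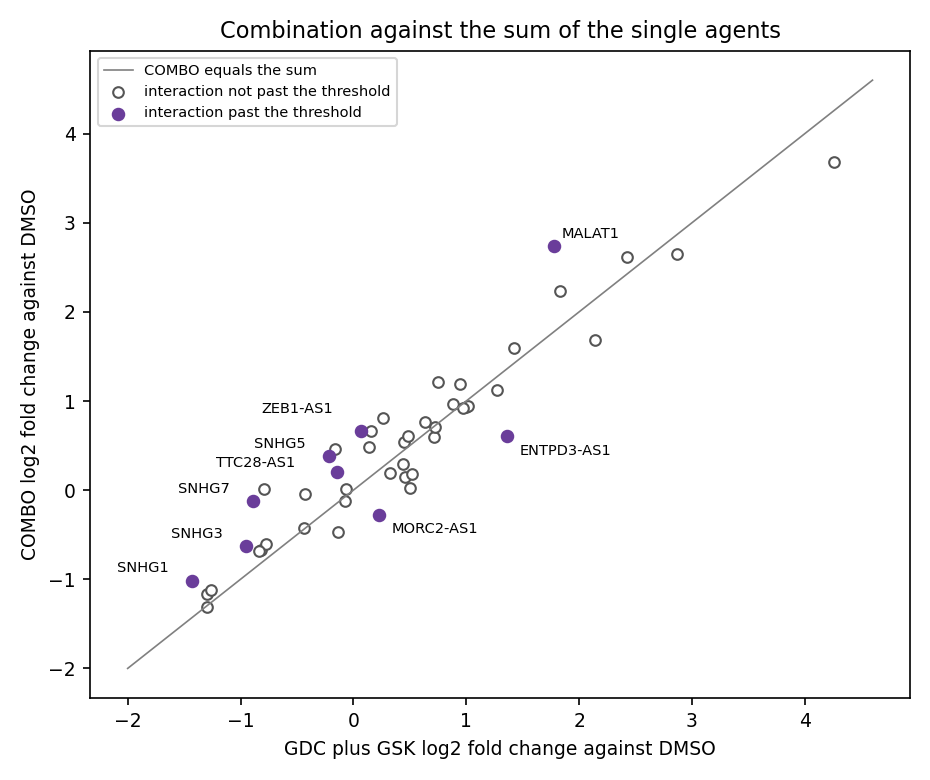
Log2 fold change with COMBO against DMSO (vertical axis) beside the sum of the GDC and GSK log2 fold changes (horizontal axis) for 48 members. The line marks equality, and filled points are the 9 members whose interaction had q under 0.05, with MALAT1 at 2.74 farthest above the line.

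Long noncoding RNAs with other names were read from a further list. Of 24 tested, 13 were higher and 3 lower with COMBO, 7 and 5 with GSK, and 3 and 2 with GDC. The shares of all genes were 43.3% and 39.2%, 40.0% and 35.7%, and 20% each way, so the share higher lay above the background with COMBO alone. KCNQ1OT1, the imprinted antisense RNA of the KCNQ1 locus, rose by 1.76 with COMBO, MIR210HG, host of a hypoxia-induced microRNA, by 1.69, and PART1, a prostate RNA, by 1.24. DLEU1 fell by 1.98 and MIR17HG, host of the miR-17-92 cluster, by 1.31. The HOXA-cluster RNAs HOTAIRM1 and HOTTIP, transcribed from the same cluster as HOXA11-AS1, rose by 0.80 and 1.23 with GSK and by 0.72 and 0.93 with COMBO.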

How the data were processed

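PolyA RNA of C4.2B cells was sequenced on an Illumina NextSeq instrument in 12 libraries. The authors aligned reads to hg38 with STAR and counted them with HTSeq (versions, annotation and use of strand not given in the sources used here). The deposited values are raw counts per gene symbol, with summary lines for uncounted reads (23.7% to 33.7% of all reads) left out of library sizes. A deposited table of normalized values was not used here. There were 0 unmapped columns.

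Counts were fitted with edgeR 4.0.16 (R 4.3.3): filterByExpr, TMM, glmQLFit and glmQLFTest on all 12 libraries with 1 coefficient per arm and no covariate, two-sided, with Benjamini-Hochberg adjustment over 14189 genes. SE is the log2 fold change divided by the square root of F. CPM uses TMM-scaled library sizes, and a count of 0 allows 3 counts, or 0.0722 to 0.330 CPM. Such limits cover counting error only. Replicates differed by more than sampling noise (the chi-square statistic over its degrees of freedom was 1.80 to 6.49), and none were merged.

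Members and gene lists were chosen with earlier results of these data known. Genes were named by rule: MALAT1, NEAT1, GAS5, H19 and the SNHG genes; antisense genes with the largest called changes (up to 4 each way in GSK and COMBO, 3 in GDC, 2 in the interaction, mean log2 CPM not below 0, no overlap with DMSO), the 4 most counted, and their sense partners; and the genes on either side of the count limit.

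Symbols were placed on GENCODE 44 (38 by their own symbol, 9 by a RefSeq synonym, 1 not placed). RefSeq promoters (GRCh38.p14, 300 bases) were found for 36 members, with the first listed where there were several. Other settings tried were edgeR with the size factors of DESeq2, edgeR scaled by library totals, DESeq2 1.42.0 itself, omission of the filter, a filter on mean CPM (1 or more), a minimum change of 1 on the log2 scale, a replicate block, a fit of only the arms compared, and 12 fits without 1 library. The scripts were tested on simulated counts. Some genes are not reported here.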

Additional observations from a re-analysis of the deposited data

Results flagged for a closer look

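For 9 members the effect of GDC-0941 with GSK126 differed from that without it, by the interaction term of the fit (edgeR quasi-likelihood test, adjusted over all genes). The difference on the log2 scale was 0.96 for MALAT1 (adjusted p = 0.00137), 0.60 for SNHG5 (adjusted p = 0.00465), 0.59 for ZEB1-AS1 (adjusted p = 0.0143), 0.41 for SNHG1 (adjusted p = 0.0190) and 0.32 for SNHG3 (adjusted p = 0.0224), and these 5 calls were kept in all 18 alternative fits.

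For the other 4 the call depended on the processing or on single libraries. SNHG7 (0.77, adjusted p = 0.0280) was lost without DMSO C (adjusted p = 0.0684), GDC C (0.0578), GSK C (0.0758) or COMBO A (0.0511). TTC28-AS1 (0.35, adjusted p = 0.0491) was lost without GDC C (0.0532), GSK C (0.113) or COMBO C (0.0614), with DESeq2 (0.0796) and with the replicate block (0.0521). ENTPD3-AS1 (-0.76, adjusted p = 0.0225) was lost in 9 of 18 alternatives, with the highest adjusted p of 0.159 without GSK B. MORC2-AS1 (-0.50, adjusted p = 0.0276) was lost in 13 of 18, with the highest of 0.178 also without GSK B.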

How the results depend on the processing

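Of 192 pairs of a named member and a comparison, 110 were called, of which 87 kept call and direction in every alternative, 23 lost the call in at least 1 and 0 reversed, and 23 of the 82 others gained a call. Counts of members called moved by more than 1.5 times in these cases. In GDC, 5 were higher with DESeq2 (10 in the main fit) and 8 lower with no filter (4), with ranges of 6 to 10 higher and 3 to 7 lower over the fits without 1 library, with 6 higher without GDC A or GDC B and 7 lower without GDC A or COMBO A. In COMBO against GSK, 2 were lower (4 in the main fit) with library totals, DESeq2, no filter, a mean CPM of at least 1 and compared arms only, and 1 to 3 over the fits without 1 library, with 1 without GSK A. For the interaction, 0 were lower with DESeq2 or no filter, 1 with a mean CPM of at least 1, and 0 to 2 over the fits without 1 library, with 0 without DMSO A, DMSO B, any GDC library or GSK B. A minimum change of 1 on the log2 scale left 0 higher and 0 lower for GDC, 6 and 1 for GSK, 10 and 4 for COMBO, 8 and 1 for COMBO against GDC, 2 and 0 in COMBO against GSK, and 0 and 0 in the interaction. The cause was not tested. The interaction was not run with compared arms only.

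The letters of the libraries were not taken as pairs, since not every same-letter correlation was over 0.1: deviations of same-letter libraries correlated at -0.0839 to 0.188, those of other letters at -0.146 to 0.104 (between GDC and COMBO, 0.0727 to 0.188 and -0.146 to 0.0453), and 6 of 12 libraries correlated best with their own letter. With the replicate block, 9 members were higher and 5 lower in GDC, 19 and 9 in GSK, 26 and 10 for COMBO, 22 and 9 for COMBO against GDC, 11 and 3 in COMBO against GSK, and 6 and 3 in the interaction. Low depth limits the antisense genes under 1 CPM, such as ABHD11-AS1 with 17 counts in DMSO.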
